A study of Mus musculus with 6 samples.

Results

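The genes described here are Phf11a, Phf11b, Phf11c, Phf11d, Sp100, Sp140 and Rtp4, 7 of the 18506 genes tested in macrophages lacking the mitochondrial fission protein DRP1. They were chosen by name with their measured rise in counts from WT to Drp1 KO libraries already known, so their differences between genotypes are given as a description. Where the text counts which of them passed the test run on all genes, the count supports nothing on its own. RNA was sequenced from bone marrow–derived macrophages (BMDMs), macrophages grown from marrow for 7 days, after 8 hours of hypoxia serum starvation (HSS), a culture model of ischemia. There were 3 WT and 3 Drp1 KO libraries, and all 6 were exposed to HSS. Both genotypes carried 1 allele of LysM-Cre, in which the lysozyme M promoter drives Cre recombinase in myeloid cells. WT cells were Drp1+/+ and Drp1 KO cells were Drp1 fl/fl. Marrow of more than one mouse per genotype was pooled, and whether each library came from its own pool is not stated, so the spread between libraries may be technical in part.

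PHF11 proteins carry a PHD finger, a fold that many chromatin proteins use to read histone tails. SP100 and SP140 combine a SAND domain, which binds DNA, with domains that read chromatin, and SP100 is a building block of PML nuclear bodies, where it restrains the genomes of DNA viruses. RTP4 is a receptor transporter protein that helps receptors reach the cell surface and restrains some RNA viruses. The genes are known as targets of interferon: its receptor sets off signalling that ends with a complex holding STAT2 and IRF9, which binds the interferon-stimulated response element of target promoters.

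Phf11a, Phf11b, Phf11d and Phf11c follow one another on the minus strand of chromosome 14 of GRCm39, from 59514361 to 59632830, and are all protein coding. Sp140 (chromosome 1, 85528099 to 85572758) and Sp100 (chromosome 1, 85577709 to 85637719) are neighbours on the plus strand. Rtp4 (chromosome 16, 23337811 to 23432972, plus strand) has a long annotated span that comes from Rtp4-202, a transcript with 0 counts in all 6 libraries. Its span overlaps Masp1 on the opposite strand. Annotated antisense RNAs overlap Sp140 and Sp100 and were not among the transcripts quantified. The strand setting of the quantification is not stated, so reads of a gene and its antisense partner might not have been told apart.

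RefSeq promoter windows from 250 bases before to 50 bases after the start (build GRCm38.p6) were found for 6 of the 7 genes, all but Rtp4. They were searched on both strands for the core of the interferon-stimulated response element, a pair of GAAA with any 2 bases between them, and for a looser form with any base at the second position of the first GAAA, which includes every match of the stricter one. The forms were chosen after the windows had been read. The looser form was found in the windows of 4 of the 6 genes, and of 2457 of all 27025 genes with a window (9.09%). The stricter form was found in 2 of the 6 and in 3.99% of all genes. Among 33 interferon-stimulated genes of a list used below, 22 held the looser form (66.7%) and 18 the stricter (54.5%). The stretches from 100 bases before to 20 bases after the start are shown, 5′ to 3′ on the strand of the gene and with the match in capitals, because the Phf11 genes differ there.
Phf11a (chr14:59297503-59297622, minus strand): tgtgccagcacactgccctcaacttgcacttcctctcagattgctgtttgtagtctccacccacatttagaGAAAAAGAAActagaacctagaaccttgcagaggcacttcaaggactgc
Phf11b (chr14:59341311-59341430, minus strand): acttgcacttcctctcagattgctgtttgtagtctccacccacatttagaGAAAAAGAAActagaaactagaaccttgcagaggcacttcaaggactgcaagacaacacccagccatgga
Phf11d (chr14:59365471-59365590, minus strand): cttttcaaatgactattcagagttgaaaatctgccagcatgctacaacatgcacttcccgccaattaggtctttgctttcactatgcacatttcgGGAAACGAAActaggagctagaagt
Phf11c (chr14:59393493-59393612, minus strand): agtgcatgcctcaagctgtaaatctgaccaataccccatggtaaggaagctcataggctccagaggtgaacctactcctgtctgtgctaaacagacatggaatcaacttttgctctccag
Sp100 (chr1:85649888-85650007, plus strand): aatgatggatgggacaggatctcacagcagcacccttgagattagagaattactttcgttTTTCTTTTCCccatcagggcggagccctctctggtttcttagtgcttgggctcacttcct
Sp140 (chr1:85600603-85600722, plus strand): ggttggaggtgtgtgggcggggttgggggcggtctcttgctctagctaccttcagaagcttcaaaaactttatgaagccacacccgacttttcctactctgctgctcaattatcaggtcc
In Phf11a and Phf11b the match was the same, GAAAAAGAAA, from 29 to 20 bases before the start of Phf11a and from 50 to 41 bases before that of Phf11b. In Phf11d the match GGAAACGAAA lay across the start, from 5 bases before to 5 bases after it. In Sp100 the match lay on the opposite strand and reads TTTCTTTTCC on the gene's strand, from 40 to 31 bases before the start shown. Neither form was found in the windows of Phf11c and Sp140. The same held for both windows of Sp110, a relative of Sp100 described below that was also higher in Drp1 KO libraries. A match is a stretch of letters and not a measured binding site.

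Levels were expressed as gene counts, summed over transcripts and scaled to normalised library size (CPM). The fold changes were taken from edgeR's quasi-likelihood fit across all 18506 genes with at least 10 counts in total. Total estimated counts per library ranged from 23389488 to 32231206, and a level of 3 counts equals 0.0917 to 0.136 CPM, a limit that covers counting error only. The targeted gene Dnm1l, which encodes DRP1, had 69.9 to 75.1 CPM in WT against 58.8 to 66.3 CPM in Drp1 KO libraries (log2 fold change -0.23, SE 0.092, adjusted P = 0.248, edgeR). The part of Dnm1l that is deleted was not examined apart from the gene sum. At the protein level, the paper reports deletion of DRP1 in BMDMs by immunoblot.

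All 7 genes had a higher mean in Drp1 KO than in WT BMDMs, and they fell into a group with large, a gene with intermediate and a pair with small differences. Rtp4, Phf11a, Phf11b and Phf11d were 5.14-fold to 6.60-fold higher, Sp100 was 2.13-fold higher, and Phf11c and Sp140 differed least. Of the 7, 5 were called higher at an adjusted P under 0.05, beside 2.29% of all genes. In 6 of the 7 the groups did not overlap, with every Drp1 KO library above every WT library, which held for 11.7% of all genes. These counts follow from how the genes were listed and nothing is read from them. In libraries of whole cultures, a higher level in each cell and a larger share of cells expressing a gene cannot be told apart.

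Phf11d was the most abundant gene of the Phf11 cluster. Its level was 33.9, 26.4 and 20.5 CPM in WT libraries 1 to 3 against 106, 151 and 157 CPM in Drp1 KO libraries 1 to 3. Every Drp1 KO library was well above the highest WT library. The mean ± SD of 3 libraries was 26.9 ± 6.70 CPM for WT against 138 ± 27.6 CPM for Drp1 KO, 5.14-fold higher (log2 fold change 2.36, SE 0.198).

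Phf11b, its neighbour, had 12.3, 8.70 and 7.43 CPM in WT libraries 1 to 3. It had 41.0, 54.4 and 56.3 CPM in Drp1 KO libraries 1 to 3, 5.36-fold higher (log2 fold change 2.42, SE 0.194). As for Phf11d, library 1 was the highest of WT and the lowest of Drp1 KO. Phf11a had 2.33, 1.05 and 1.43 CPM in WT against 7.95, 11.8 and 11.6 CPM in Drp1 KO libraries, 6.60-fold higher (log2 fold change 2.72, SE 0.28). The WT value rests on 28 to 54 counts per library, so the fold change of Phf11a is the least precise of the 4 large ones.

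Phf11c was set apart from the other genes of the cluster. It had 1.55, 2.85 and 2.08 CPM in WT libraries against 3.45, 3.58 and 4.08 CPM in Drp1 KO libraries, 1.71-fold higher (log2 fold change 0.77, SE 0.247). The groups did not overlap, but the gap between the highest WT and the lowest Drp1 KO library was smaller than the spread within WT. These levels rest on 36 to 76 counts in WT against 76 to 133 counts in Drp1 KO libraries. Phf11c was among the 2 genes that were not called, but it was called when libraries of the same number were treated as pairs.

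Rtp4 had 30.4, 25.0 and 22.2 CPM in WT libraries 1 to 3. It had 107, 144 and 157 CPM in Drp1 KO libraries 1 to 3. The groups were as far apart as for Phf11d, with means of 25.9 ± 4.18 and 136 ± 26.0 CPM (SD, n = 3 each). The level was 5.26-fold higher in Drp1 KO BMDMs (log2 fold change 2.40, SE 0.165).

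Sp100, the nuclear body gene, had the highest level of the 7 in both genotypes and a smaller fold change. It had 127, 109 and 98.1 CPM in WT libraries against 210, 251 and 251 CPM in Drp1 KO libraries, 2.13-fold higher (log2 fold change 1.09, SE 0.121). Sp140 lies next to Sp100, in the same direction. It had 104, 74.0 and 76.5 CPM in WT libraries against 122, 112 and 102 CPM in Drp1 KO libraries, 1.32-fold higher (log2 fold change 0.40, SE 0.138). WT library 1 was above Drp1 KO library 3, so the groups of Sp140 overlapped, and Sp140 was the other gene not called. It too was called with libraries of the same number as pairs. In TPM, a unit of transcript abundance corrected for length, Sp140 had 80.0 to 89.3 in WT against 94.1 to 100.2 in Drp1 KO libraries, without overlap. With counts scaled for length its log2 fold change was smaller, 0.29, and it was not called (adjusted P = 0.225, edgeR).

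**Figure D1:**
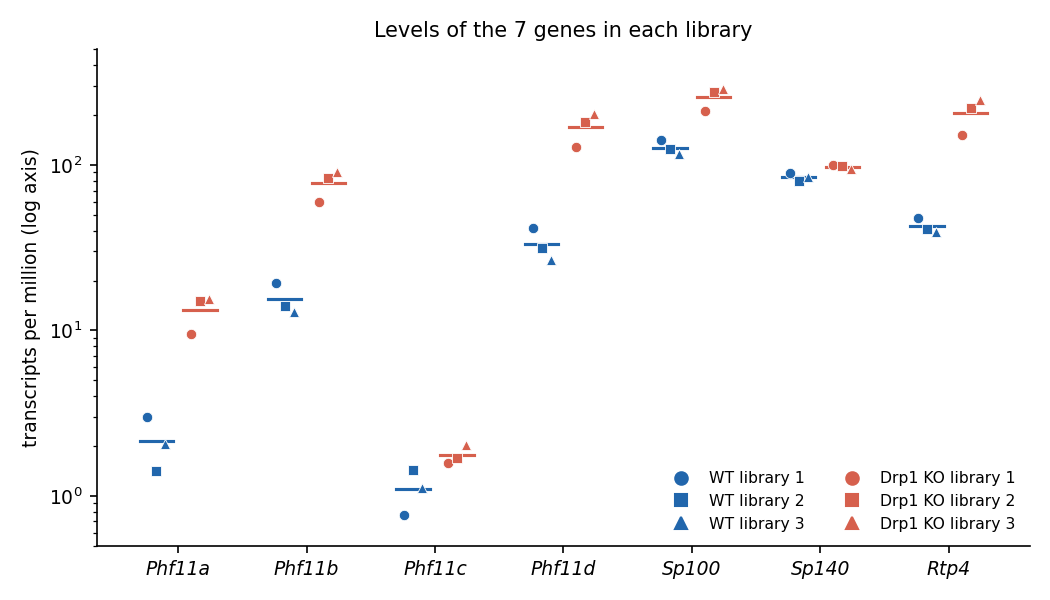
Levels of the 7 genes in TPM (log axis), with a point for each library and a bar at the group mean (WT blue, Drp1 KO red). The groups lie far apart for Phf11a, Phf11b, Phf11d and Rtp4, are closer for Sp100 and nearly meet for Phf11c and Sp140.

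The order of the genes by TPM differed between genotypes. In WT BMDMs Sp100 was highest (127 ± 12.4 TPM, SD, n = 3), followed by Sp140 (84.5 ± 4.63), Rtp4 (42.7 ± 4.52), Phf11d (33.2 ± 7.53), Phf11b (15.5 ± 3.34), Phf11a (2.16 ± 0.804) and Phf11c (1.10 ± 0.332). Rtp4 and Phf11d overlapped between libraries, as did Phf11a and Phf11c, and the other neighbours did not. In Drp1 KO BMDMs Sp100 (258 ± 40.6 TPM), Rtp4 (207 ± 49.4) and Phf11d (171 ± 38.3) came first, each overlapping the next. Sp140 (97.7 ± 3.16 TPM) came next, above Phf11b (77.9 ± 16.1), Phf11a (13.3 ± 3.26) and Phf11c (1.77 ± 0.235). The ratio of Sp100 to Sp140 in TPM was 1.58, 1.56 and 1.38 in WT libraries against 2.11, 2.78 and 3.05 in Drp1 KO libraries. The neighbouring genes thus did not keep their proportion. Phf11d and Phf11b kept theirs, with a ratio of 2.06 to 2.24 in all 6 libraries.

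The 4 Phf11 genes are paralogs, and the quantification has to divide reads between them where their sequences are the same. Of the 31-base words in their transcripts, 54.1% of those of Phf11a, 62.4% of Phf11b, 14.6% of Phf11c and 12.5% of Phf11d also occurred in another gene. Their sum does not depend on how reads are divided among the 4, though it does depend on words shared with genes outside the cluster. It was 50.1, 39.0 and 31.4 CPM in WT against 159, 221 and 229 CPM in Drp1 KO libraries. The sum was 5.06-fold higher in Drp1 KO BMDMs (log2 fold change 2.34, SE 0.188). A pseudogene named Phf11 beside the cluster, which shares 17.0% of the words of Phf11a and 23.9% of those of Phf11b, had 1 to 4 counts in WT libraries and 9 to 18 in Drp1 KO libraries, without overlap (log2 fold change 2.17, SE 0.648, adjusted P = 0.112, edgeR). Sp140 shared 53.0% of its words with other genes, Sp100 6.5% and Rtp4 none, so the estimate for Sp140 depends more on the division of reads than that for Sp100 or Rtp4.

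The make-up of the cluster restates the same gene counts as shares, and it is given as a description. Phf11d gave most of the summed counts in each library and Phf11c the least in Drp1 KO BMDMs. The share of Phf11c was 3.14%, 7.30% and 6.57% in WT against 2.17%, 1.62% and 1.79% in Drp1 KO libraries, a difference of -3.81 percentage points. Every Drp1 KO library was below every WT library, which follows from the smaller fold change of Phf11c beside that of the sum. When shares were taken from TPM, the difference of Phf11c was -1.56 points. The shares of Phf11a, Phf11b and Phf11d had means 1.18, 1.51 and 1.12 points higher in Drp1 KO BMDMs. These small differences moved with the setting: that of Phf11b was -0.149 points from TPM and 0.904 points without WT library 2, that of Phf11a was 0.543 points without WT library 2, and that of Phf11d was 0.299 points without WT library 3.

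**Figure D2:**
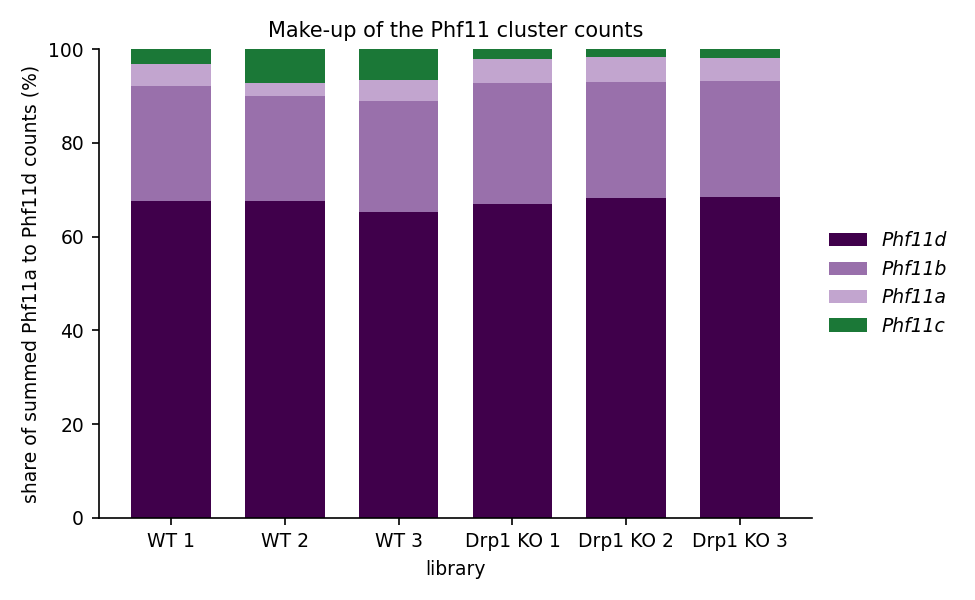
Share of each gene in the summed counts of Phf11a to Phf11d, as a percentage (y axis) in each library (x axis). Phf11c takes 3.14% to 7.30% in WT libraries against 1.62% to 2.17% in Drp1 KO libraries, and Phf11d is the largest share in each bar.

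The genes next to the clusters were compared by a fixed rule, the nearest 3 protein-coding genes on each side of each locus. Of these 18 genes, 12 had enough counts to be tested and 1 was called, at log2 fold changes from -0.44 to 2.16. The largest value, 2.16, was that of a gene with 13 counts in total (SE 1.06). The gene called was Sp110, a relative of Sp100 that lies on the minus strand beside Sp140. It had 42.8, 37.6 and 34.8 CPM in WT against 72.3, 77.1 and 72.6 CPM in Drp1 KO libraries, a log2 fold change of 0.95 (SE 0.104, adjusted P = 0.000985, edgeR), without overlap. In gene order Sp140 thus lay between Sp110 and Sp100 and had the smallest of the 3 fold changes. The 6 genes beside the Phf11 cluster were not called. Of those beside Rtp4, St6gal1 and Bcl6 were tested and not called, and the other 4 had 0 counts in all libraries.

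**Figure D3:**
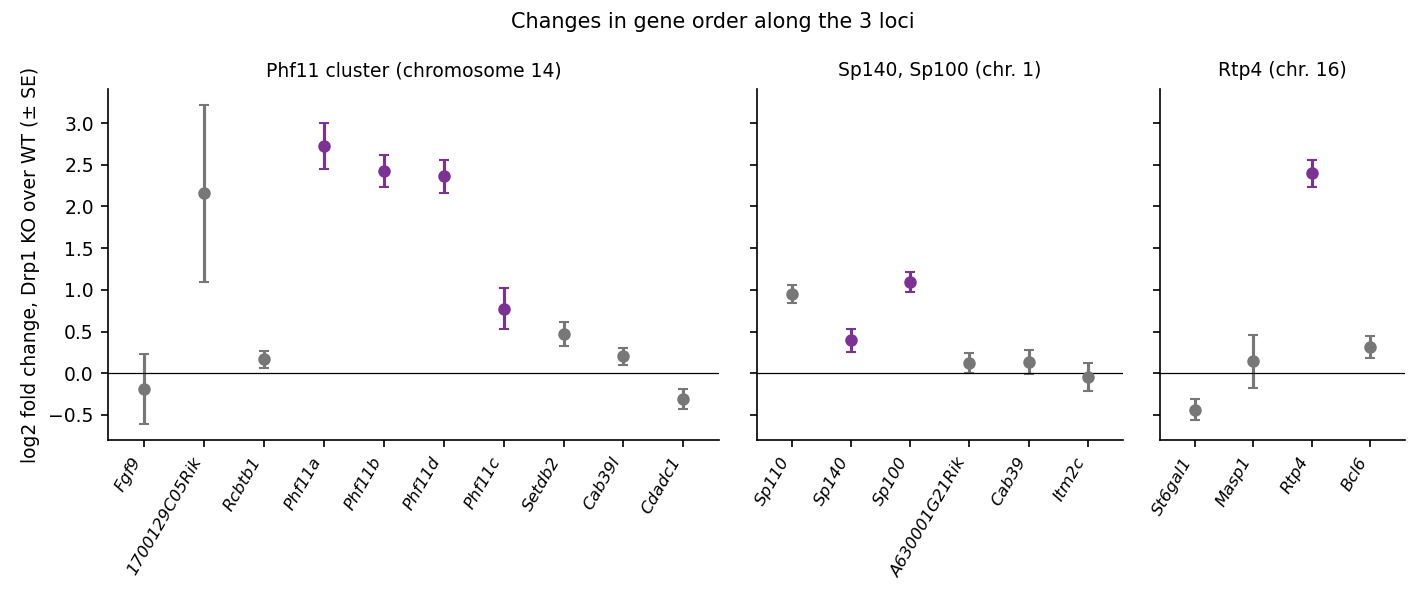
Log2 fold change of Drp1 KO over WT (y axis, bars are SE) for the tested genes at the 3 loci, in their order along the chromosome and not to distance, with the listed genes in purple and their neighbours in grey. The purple points of Phf11a, Phf11b, Phf11d and Rtp4 lie at 2.36 to 2.72, the grey points other than Sp110 and 1 gene with few counts lie at -0.44 to 0.47, and Sp140 lies below Sp110 and Sp100.

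Sp100, Phf11d, Sp140 and Rtp4 each have several transcripts, and the share of the most abundant one was tested between genotypes. Phf11d-202, of 1281 bases, took 44.2%, 53.4% and 51.3% of the gene's counts in WT against 56.9%, 60.3% and 62.0% in Drp1 KO libraries. The difference was 10.1 points without overlap (two-sided P = 0.1 by an exact permutation test, the lowest value allowed, and adjusted P = 0.4 over 4 genes). With shares taken from TPM the difference was 7.23 points (exact permutation test, P = 0.2), so the separation of the groups was lost. Without Drp1 KO library 3 the difference from counts was 8.95 points (exact permutation test, P = 0.2), and there the groups still did not overlap. The longer Phf11d-201, of 2666 bases, took 24.6% to 26.6% in WT against 14.1% to 18.0% in Drp1 KO libraries. It was chosen after its values were seen and was not tested.

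For the leading transcripts of the other genes the groups overlapped, and with 3 libraries each these tests cannot show that the shares were alike. Sp100-213 took 29.3% to 39.9% of Sp100 counts in WT against 30.1% to 34.6% in Drp1 KO libraries (exact permutation test, P = 0.7). Sp140-201 took 85.5% to 91.7% and 89.9% to 91.0% (exact permutation test, P = 0.4), and Rtp4-203 took 85.8% to 91.6% and 91.0% to 93.8% (P = 0.2). Taken from TPM, the difference was 6.42 points for Sp140-201 in place of 2.30 (exact permutation test, P = 0.4) and 3.93 points for Rtp4-203 in place of 3.48 (P = 0.1). Sp140-201 differed by 4.14 points without WT library 1 and by 1.03 without WT library 2, and Rtp4-203 by 1.98 points without WT library 1. Sp100-201, a less abundant transcript chosen after its values were seen, took 9.29% to 14.5% in WT against 16.9% to 21.6% in Drp1 KO libraries. The division of counts between transcripts of a gene is itself an estimate. Of the 31 transcripts of the 7 genes in the files, 17 had the same version and length in the annotation used here.

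**Figure D4:**
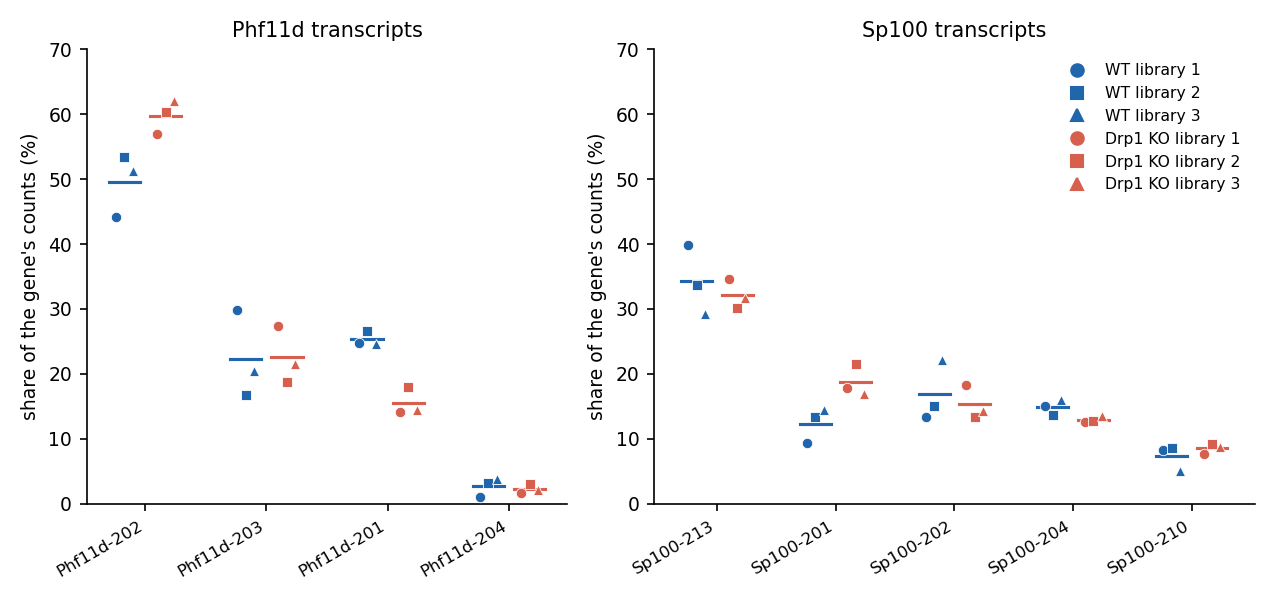
Share of each gene's counts (y axis, %) on the 4 transcripts of Phf11d and the 5 most abundant transcripts of Sp100, with a point for each library and a bar at the group mean (WT blue, Drp1 KO red). Phf11d-202 is higher and Phf11d-201 lower in all Drp1 KO libraries, and Sp100-213 overlaps.

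The pathway around the listed genes was described with gene lists. A list of 45 interferon-stimulated genes, none of them among the 7, had higher means in Drp1 KO BMDMs for all 45, and 39 were called. The median log2 fold change of the list was 1.48, beside a median of 0.005 for all genes tested, of which 621 were called in either direction (3.36%). The largest among those called were Oasl1 (3.57), Ifi27l2a (3.26), Usp18 (3.16) and Ifi44 (2.83). Not called were Bst2 (0.57), Cxcl10 (1.01), Parp9 (0.47), Gbp3 (0.75), Ifi35 (0.78) and Eif2ak2 (0.55). Rtp4, Phf11a, Phf11b and Phf11d lay above the median of this list, and Phf11c, Sp100 and Sp140 below it.

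Of 16 genes of interferon signalling, 15 were tested and 5 were called, all higher in Drp1 KO BMDMs. Among them, Stat2 rose by a log2 fold change of 1.33 (SE 0.152, adjusted P = 0.00124, edgeR), Irf9 by 0.98 and Irf1, a factor of interferon responses, by 0.59. The call of Irf1 was lost without library 2 or 3 of either group (adjusted P up to 0.142, edgeR), and those of Stat2, Irf9 and Irf7 held with each library left out in turn. Irf7, the factor that amplifies interferon production, had 74.7, 21.2 and 19.3 CPM in WT against 349, 355 and 271 CPM in Drp1 KO libraries (log2 fold change 3.09, SE 0.452, adjusted P = 0.00554, edgeR). Without WT library 1 the log2 fold change of Irf7 was 4.0. Its WT library 1 was above both other WT libraries, as it was for 6 of the 7 listed genes, all but Phf11c. The ligand gene Ifnb1 had 5 counts in a single Drp1 KO library and 0 in the other 5 libraries, which is under the filter.

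Relatives of the listed genes were less uniform. Among 7 genes related to SP100 or with a SAND domain, Sp110 and Sp140l1 rose (log2 fold change 1.10, SE 0.23, adjusted P = 0.0302 for Sp140l1, edgeR) and Gmeb1, a SAND-domain DNA-binding protein, fell by 0.49 on the log2 scale (adjusted P = 0.0467, edgeR). Over the 6 fits that each leave out a library, Sp110 was called in 6, Sp140l1 in 2, those without library 1 of either group, and Gmeb1 in 1, that without Drp1 KO library 1 (adjusted P up to 0.186, edgeR). Sp140l1 shared 56.8% of its 31-base words with other genes and Sp110 53.3%, so reads can be divided wrongly here too. Among 12 genes of PML nuclear bodies, 1 was called, the exonuclease gene Isg20 (log2 fold change 0.90, SE 0.178, adjusted P = 0.0238, edgeR), which is also known as an interferon target. Isg20 was called in 3 of the 6 fits, not without WT library 2 or 3 or Drp1 KO library 2 (adjusted P up to 0.148, edgeR). Pml itself, named here after its value was seen, had 51.5 to 58.7 CPM in WT against 60.6 to 66.9 CPM in Drp1 KO libraries (log2 fold change 0.23, adjusted P = 0.257, edgeR). In TPM the groups of Pml overlapped, at 25.9 to 28.9 in WT libraries and 21.7 to 28.4 in Drp1 KO libraries, with the lower mean in Drp1 KO. The difference between Sp100 and Pml was not tested.

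Of 18 other genes named for a PHD finger, 0 were called by edgeR, at log2 fold changes from -0.43 to 0.84. The largest value was that of a gene with 15 counts in total (SE 0.834). A fold change below 0 on the log2 scale was found for 14 of the 18, and the median was -0.13. Of the other receptor transporter genes, Rtp1 and Rtp2 had 0 counts in all libraries, and Rtp3 had 0.30 to 0.55 CPM (log2 fold change 0.42, SE 0.419, adjusted P = 0.71, edgeR). Rtp4 was the 1 gene of its family with more than a trace of RNA in these cells.

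Libraries of the same genotype differed in the level of these genes, and Phf11b, Phf11d, Sp100 and Rtp4 differed together. Deviations from the group mean on the log2 CPM scale do not contain the genotype difference. For Phf11d they were 0.36, 0.00 and -0.36 in WT libraries 1 to 3 against -0.36, 0.15 and 0.21 in Drp1 KO libraries 1 to 3. The mean of the 45 interferon-stimulated genes deviated by 0.22, 0.08 and -0.30 in WT against -0.29, 0.13 and 0.16 in Drp1 KO libraries. Over the 6 libraries Pearson's r with that mean was 0.98 for Phf11d, 0.955 for Sp100, 0.942 for Rtp4 and 0.921 for Phf11b. It was 0.579 for Phf11a and -0.028 for Phf11c, the genes with few counts, and 0.161 for Sp140, which had many. Between genes, r of the deviations was 0.949 to 0.994 among Phf11b, Phf11d, Sp100 and Rtp4. It was -0.891 to -0.175 between Phf11c and the others, and 0.167 between Sp140 and Rtp4. These values describe 6 libraries whose deviations sum to 0 in each group, and they share the scaling of each library.

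**Figure D5:**
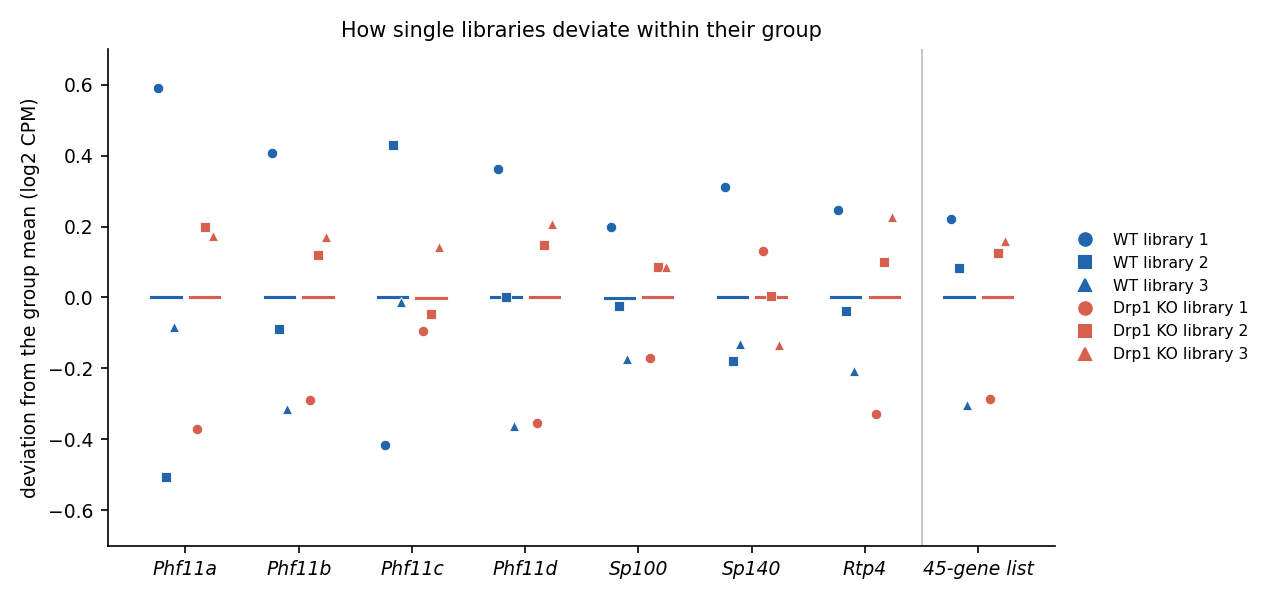
Deviation of each library from its group mean (y axis, log2 CPM) for the 7 genes and, on the right, for the mean of 45 interferon-stimulated genes, with a point for each library (WT blue, Drp1 KO red; bars at 0 are group means). WT library 1 is high and Drp1 KO library 1 low for Phf11a, Phf11b, Phf11d, Sp100, Rtp4 and the list, and Sp140 shows no such order in Drp1 KO libraries.

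Library 1 of Drp1 KO also had the lowest total count. Without libraries 1 of both groups, an alternative chosen after the libraries had been compared, the log2 fold changes were 3.23 for Phf11a, 2.78 for Phf11b, 2.71 for Phf11d, 1.28 for Sp100 and 2.67 for Rtp4, each larger than with all libraries. For these genes library 1 was the highest of WT and the lowest of Drp1 KO, so leaving it out had to widen the difference. The value was 0.50 for Sp140, which was then called, and 0.64 for Phf11c, smaller than with all libraries. When libraries of the same number were treated as pairs, which no label states, all 7 genes were called, beside 12.0% of all genes. Phf11c was called in that setting alone among 15, and Sp140 in 3 of them.

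Genes outside the 7 whose levels over all 6 libraries were most like those of Rtp4, Sp100 and Phf11b were ranked by Pearson's r over 12241 genes that averaged 1 CPM or more, a value that includes the genotype difference. Within the 7, which were left out of that ranking, r was 0.999 between Phf11b and Phf11d, Phf11b and Sp100, and Phf11d and Sp100, 0.998 between Rtp4 and either of Phf11b and Phf11d, and 0.996 between Rtp4 and Sp100. The pairs of Phf11c reached 0.708 to 0.812, and 0.333 with Sp140, while the other pairs of Sp140 reached 0.771 to 0.831. Outside the 7, those closest to Rtp4 were Ddx60, Slfn1, Ifih1, Cnbp and Fgl2, with r from 0.9971 to 0.9991. For Sp100 they were Ifi44, Rnf141, Cnbp, Oasl2 and Irf9, with r from 0.9986 to 0.9998. For Phf11b they were Oasl2, Ifi44, Cnbp, Irf9 and Ddx60, with r from 0.9977 to 0.9994. Cnbp, which encodes a zinc-finger protein that binds nucleic acids, was in all 3 rankings with a log2 fold change of 0.64.

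The cells expressed the macrophage markers. All 9 were detected, with a summed level of 15000 to 15500 TPM in WT against 12300 to 15300 TPM in Drp1 KO libraries, of which Lyz2 gave 12170 to 12510 TPM and 9724 to 12510 TPM. Of the 9, 3 were called, Fcgr1 higher and Csf1r and Mertk lower. With a library left out in turn, Fcgr1 was called in 6 of 6 fits, Mertk in 2, those without library 1 of either group, and Csf1r in 1, that without Drp1 KO library 1. Of 11 neutrophil markers 8 were tested and 0 were called by edgeR, and their summed level was 54.2 to 129 TPM in WT against 92.1 to 233 TPM in Drp1 KO libraries, with the defining marker Ly6g at 0 in all 6. Of the 8 tested, 7 had a fold change above 0 on the log2 scale, at a median of 1.16. For Ngp and Ltf the groups did not overlap in CPM, but in TPM those of Ltf did. The 12 lymphocyte markers summed to 158 to 173 TPM in WT against 78.9 to 129 TPM in Drp1 KO libraries, with 8 tested, 0 called and the natural killer cell marker Ncr1 at 0 in all 6. Cd4 was the largest part of that sum in each library, at 137.9 to 140.3 TPM in WT against 51.2 to 101.8 TPM in Drp1 KO libraries. In Drp1 KO library 3 it gave 51.2 TPM of a sum of 108 TPM. Among the 8 tested lymphocyte markers, 5 had a fold change above 0 on the log2 scale, with a median of 0.275. The 10 dendritic cell markers summed to 24.7 to 34.6 and 20.3 to 29.7 TPM, and the 8 fibroblast markers to 14.5 to 25.7 and 13.7 to 17.9 TPM, with 0 called in either list. The part of these cells in the levels of the 7 genes was not tested.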

How the data were processed

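RNA of 3 WT and 3 Drp1 KO BMDM libraries was poly(A) selected and sequenced with paired-end reads. The authors quantified reads with kallisto (v0.46.1) on GRCm39 transcripts and deposited, per library, the estimated counts and TPM of 116873 transcripts. Per the labels and methods, the strand setting is not given, and the kits named differ. By identifier, 99.4% of transcripts matched a GENCODE gene, and at most 0.575% of the deposited estimated counts of a library lay on the others. Counts were summed per gene and rounded. Genes with at least 10 counts in total were fitted with edgeR (v4.0.16) in R (v4.3.3), using TMM normalization, the quasi-likelihood test without covariates and Benjamini-Hochberg adjustment (threshold 0.05), tested first on simulated data. Standard errors were taken as log2 fold change over the root of the F statistic. DESeq2 (v1.42.0), limma-voom (v3.58.1), other filters and scalings, left-out libraries and a replicate block were alternatives. Shares of a gene's transcripts were compared by exact permutation tests. Promoters were RefSeq windows of GRCm38.p6.

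Replicate numbers are shared by the groups in the labels. Deviations of same-numbered libraries correlated at 0.51, 0.204 and 0.298 over 12248 genes, which is above 0.1 each time. WT library 2 correlated more with Drp1 KO library 3 (0.326). Deviations sum to 0 in each group, so a likeness of libraries 1 alone raises the values among libraries 2 and 3. These values thus cannot show that libraries 2 and 3 pair by number. The replicate block took libraries as paired by number on the same-numbered values alone. The fit without covariates, fixed from the study's methods, remained the main one. No 2 libraries agreed within sampling noise. Named beside the 7 genes are list members past the threshold, the 4 interferon-stimulated genes with the largest fold change and those not called, Dnm1l, and the 5 genes most like Rtp4, Sp100 and Phf11b. A result for 1 gene past the threshold is not reported here. The genes and lists were chosen with earlier results of these data known.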

Additional observations from a re-analysis of the deposited data

How the results depend on the processing

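Of the 7 genes, 5 to 7 were called under each of the 16 settings tried, and Phf11a, Phf11b, Phf11d, Sp100 and Rtp4 were called in each of the 15 that refitted the model. Of the 45 interferon-stimulated genes, 31 to 45 were called. The number of all genes called, 621, was less stable: 1155 with DESeq2, 1065 with a filter of 1 count, 1880 without libraries 1 of both groups, 2345 at the study's fold change threshold with an unadjusted P under 0.05, and 181 to 904 with a library left out in turn. Leaving out WT libraries 2 and 3 singly gave 181 and 217, and leaving out Drp1 KO libraries 2 and 3 singly gave 268 and 348. Of the 64 related and neighbouring genes, 9 were called, and 15 with DESeq2, 17 at the fold change threshold, 21 without libraries 1 and 5 to 10 with a library left out (5 without WT library 2 or 3). The cause was not tested. With the replicate block, which treats libraries of the same number as pairs, 2212 genes, 7 of the 7 genes and 20 of the related genes were called. The summed Phf11a to Phf11d had a log2 fold change of 2.67 without libraries 1. The difference in the share of Sp100-213, -2.17 points, was 0.633 without WT library 1 and ran from -4.69 to 0.633 over the left-out libraries, and that of Phf11b went from 1.51 to -0.149 points with TPM. Depth limits Phf11a and Phf11c, with under 100 counts in each WT library, and 3 libraries per group limit the exact tests.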
